A study of Mus musculus with 18 samples.

Results

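The genes described here are 37 cell cycle genes, 16 of DNA replication and 21 of mitosis, in liver RNA of mouse offspring whose dams ate different diets. The list was given by gene symbol, and 36 of the 37 matched a probe set of the array; no probe set is listed under the symbol Ccnb1, which is not analysed here. Each gene is represented by its probe set with the highest mean log2 signal over 18 arrays. In all, 18193 genes had a probe set naming them alone, and 11018 of these reached a mean log2 signal of 5.85 (a signal of 57.5), the median of all non-control probe sets. Of the cell cycle genes, 22 reached it, 14 of replication and 8 of mitosis.

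The animals were offspring of DUK, an outbred mouse line bred by crossing 4 outbred and 4 inbred lines. Dams were fed isoenergetic diets with 20% protein by weight (control) or 40% (high protein, HP). The control groups had the 20% diet in pregnancy and lactation, the HP pregnancy groups had 40% in pregnancy and 20% in lactation, and the HP lactation groups had 20% in pregnancy and 40% in lactation. Livers were taken at postnatal day 21 and day 150, which gives 6 groups of 3 Affymetrix Mouse 430 2.0 arrays. Each array carried RNA pooled from several livers, so the errors below describe the spread between pools. The labels give different numbers of animals per pool and do not say whether pools share animals. Sex and scan date were not given; Xist, which coats the silenced X of females, was at 7343 or more in control day 21 replicate 2 and HP lactation day 150 replicate 4 and at 93 or less elsewhere.

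The cell cycle is the ordered series of steps in which a cell copies its DNA and divides. Licensing factors load the Mcm helicase on origins in late mitosis and G1. D and E cyclins and the E2F transcription factors open the way from G1 into S phase, in which Pcna and ribonucleotide reductase serve the polymerases. Cyclins A and B with Cdk1, the Aurora and Polo kinases, the spindle checkpoint and the anaphase-promoting complex then carry the cell through mitosis. Hepatocytes divide in the growing liver of young mice and rest for the most part in adults, and many become polyploid around weaning by passing S phase without dividing.

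Replication and mitosis genes are known to differ in their promoters: E2F sites mark many S phase genes, while many mitosis genes carry a CHR element beside CCAAT boxes. In the 250 bases before the transcription start, as RefSeq gives it on GRCm38.p6, an entry was found for 29 of the 37 genes, with 14 promoters of replication genes (Mcm7 has 2) and 16 of mitosis genes. The letters of the CHR (TTTGAA or TTCGAA), read on both strands, were in 8 of the 16 mitosis promoters (50%), in 2 of the 14 replication promoters (14.3%) and in 17.1% of all 32851 promoters. CCAAT, also read on both strands, was in 81.2%, 64.3% and 33.8% of these. An E2F motif (TTTGGCGC, TTTCGCGC or TTTCCCGC, both strands) was in 1 mitosis promoter (6.25%), in 4 replication promoters (28.6%) and in 1.53% of all. A match is a match of letters and no measured binding. Of the 4 promoters shown, Mcm6 was taken by rule, as the gene with an E2F motif that fell with age in control offspring; Cdk1, Ube2c and Cdc20 were chosen after their values were seen, since they were high on the arrays that stand apart. The letters of the motifs are in capitals, and each sequence runs 5′ to 3′ up to the base before the start.
Mcm6, a subunit of the replicative helicase, chr1:128359706-128359955, minus strand: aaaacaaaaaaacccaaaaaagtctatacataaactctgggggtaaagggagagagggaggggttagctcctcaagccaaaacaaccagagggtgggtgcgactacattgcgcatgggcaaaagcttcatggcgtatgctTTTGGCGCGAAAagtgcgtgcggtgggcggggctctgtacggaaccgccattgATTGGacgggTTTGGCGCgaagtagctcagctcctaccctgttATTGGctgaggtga
Cdk1, the kinase that drives entry into mitosis, chr10:69352913-69353162, minus strand: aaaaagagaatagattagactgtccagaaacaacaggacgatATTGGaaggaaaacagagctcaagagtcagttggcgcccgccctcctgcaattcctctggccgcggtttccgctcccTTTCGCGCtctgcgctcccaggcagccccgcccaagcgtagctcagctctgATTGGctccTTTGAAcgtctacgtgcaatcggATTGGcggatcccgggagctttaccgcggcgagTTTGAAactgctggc
Ube2c, the E2 enzyme of the anaphase-promoting complex, chr2:164769679-164769928, plus strand: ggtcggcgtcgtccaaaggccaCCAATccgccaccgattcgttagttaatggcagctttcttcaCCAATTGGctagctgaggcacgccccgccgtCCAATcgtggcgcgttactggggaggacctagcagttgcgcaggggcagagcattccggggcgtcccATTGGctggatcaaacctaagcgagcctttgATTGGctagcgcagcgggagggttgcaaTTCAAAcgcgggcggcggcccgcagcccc
Cdc20, the activator of that complex, chr4:118437344-118437593, minus strand: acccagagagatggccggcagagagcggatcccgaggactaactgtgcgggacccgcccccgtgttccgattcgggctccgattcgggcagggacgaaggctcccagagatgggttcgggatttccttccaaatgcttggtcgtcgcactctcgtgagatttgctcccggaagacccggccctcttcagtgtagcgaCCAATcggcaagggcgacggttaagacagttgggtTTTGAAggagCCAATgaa
The Mcm6 promoter holds 3 E2F matches, 110, 106 and 47 bases before the start, counted to the first letter of the match, of which those at 110 and 106 overlap on opposite strands, and no CHR letters. The Cdk1 promoter holds all 3 kinds, with CHR letters 71 and 15 bases and an E2F match 131 bases before the start. In Ube2c and Cdc20 the CHR letters lie 29 and 18 bases before the start, and no E2F letters were found. Not every mitosis gene that was highest on the arrays that stand apart holds CHR letters. The promoters of Birc5, Mad2l1 and Nusap1 hold none of the 3 kinds, while those of Mki67 and Top2a hold CHR letters and CCAAT.

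Array by array, the cell cycle genes were highest in 2 pools of different groups, and these differed in which genes were high. On HP lactation day 21 replicate 3 both kinds were high: the mean log2 signal was 9.68 over the 14 replication genes and 8.65 over the 8 mitosis genes. This array had the highest signal of all 18 for 12 of the 14 and 5 of the 8, and for 7.11% of all genes. The 14 and 8 were kept by their mean over all 18 arrays, the 2 high pools included. High signals in these pools thus helped genes near the signal threshold to be kept. Top2a, with a mean log2 signal of 5.97, was only just past it. Counts over all matched mitosis genes, which do not use the threshold, are given below. On control day 150 replicate 3 the mitosis genes stood at 8.47, while the replication genes stood at 7.93, within the 7.61 to 8.0 of day 150. On the other 16 arrays the replication mean was 7.61 to 8.76 and the mitosis mean 6.04 to 7.77. The mitosis mean minus the replication mean, read between arrays and not as a comparison of genes, was -1.65 to -0.80 on those 16 arrays, -1.03 on HP lactation day 21 replicate 3 and 0.53 on control day 150 replicate 3.

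**Figure D1:**
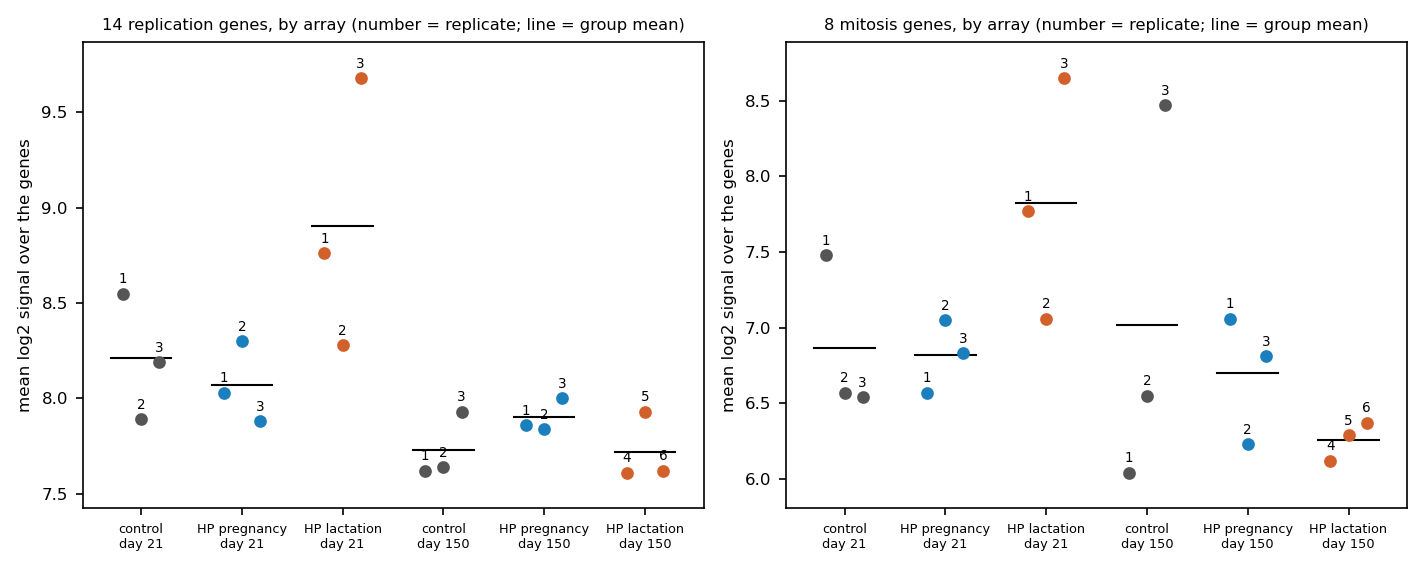
Mean log2 signal of the 14 replication genes (left) and the 8 mitosis genes (right) past the signal threshold, 1 point for each of the 18 arrays, numbered by replicate, with a line at each group mean. HP lactation day 21 replicate 3 is the highest in both panels (9.68 and 8.65), and control day 150 replicate 3 stands high in the mitosis panel alone (8.47 against 7.93 for replication).

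Set against the other 2 arrays of its own group, control day 150 replicate 3 was over 2-fold above both in 7 of 8 mitosis genes and 0 of 14 replication genes, where 1.09% of all 11018 genes were. HP lactation day 21 replicate 3 was so in 4 of 8 and 6 of 14 (0.926% of all genes), and control day 21 replicate 1 in 4 of 8 and 3 of 14 (0.563%). Most mitosis genes under the signal threshold were high on the same arrays, but Foxm1, Bub1 and Bub1b had neither among their 2 highest. Of all 20 matched mitosis genes, the 8 past the threshold included, 17 had HP lactation day 21 replicate 3 among their 2 highest arrays. Control day 150 replicate 3 was among them for 16. That share was not counted over all genes. By a different measure, these arrays were the single highest for 10 and 6 of the 20, and for 7.11% and 4.17% of the 11018 genes. Birc5, which encodes survivin of the chromosome passenger complex, had 273.5 and 218.9 on these arrays and at most 138.8 elsewhere. Kif20a, a motor of cytokinesis, had 88.2 and 88.6, and at most 44.3 elsewhere. Bub1b, a checkpoint kinase, went the other way, with 7.9 and 3.2. Foxm1 did not follow these arrays either, with 45.4 and 7 there and up to 89.6 elsewhere. The probe sets of Kif20a, Bub1b and Foxm1 were all dim on every array (at most 88.6, 73.3 and 89.6).

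**Figure D2:**
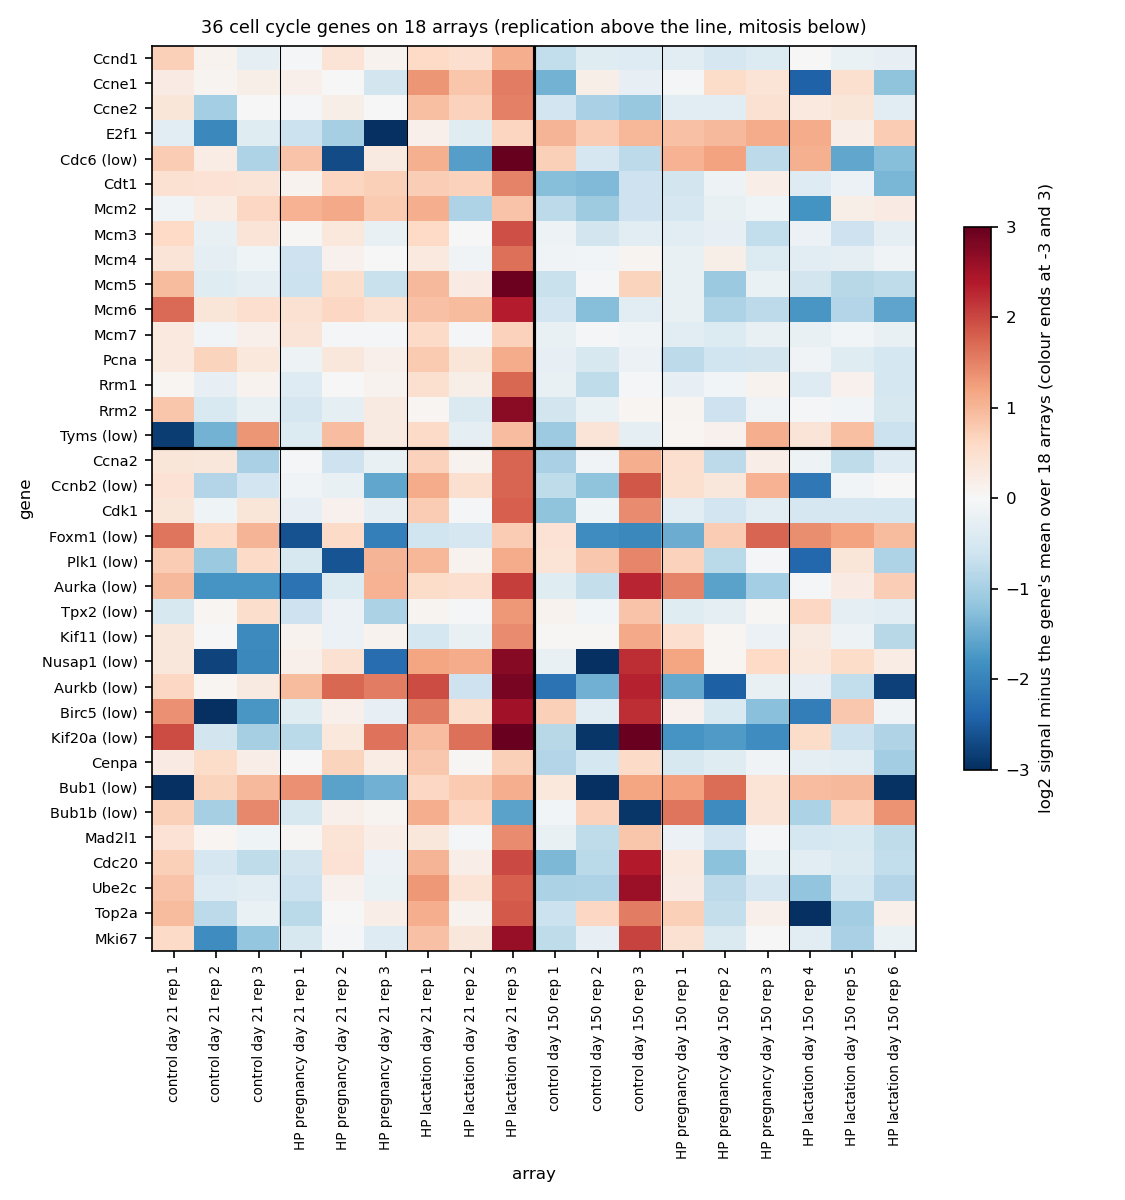
Log2 signal of each of the 36 matched genes (rows) on each of the 18 arrays (columns), minus the gene's mean over the arrays; red is above and blue below that mean, and "low" marks the 14 genes under the signal threshold. Most of the column of HP lactation day 21 replicate 3 is red, and the column of control day 150 replicate 3 is red for most mitosis genes, with Foxm1 and Bub1b blue, and paler for replication genes.

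Genes outside the list differed in the same way on these arrays. Over 14 other mitosis genes, the mean log2 signal was 8.77 on control day 150 replicate 3 and 7.84 to 8.49 on the other arrays of day 150, while over 25 other genes of the replication fork it was 8.20, within 8.07 to 8.28. On HP lactation day 21 replicate 3 both lists were above the other arrays of day 21, with 9.16 against 7.92 to 8.36 and 8.65 against 8.05 to 8.25. The 8 stellate cell markers were also high on control day 150 replicate 3 (9.54 against 8.38 to 9.21), as were 16 cell cycle inhibitors (9.26 against 8.79 to 8.97). The 10 Kupffer cell markers were above the range of day 150 by mean log2 (10.56 against 10.01 to 10.48) and within it by summed signal (26042 against 17362 to 26412). Its 3 lymphocyte markers (7.02), 4 erythroid markers (8.10) and 10 hepatocyte markers (15.01) lay within the range of day 150, and its 5 myeloid markers lay below it (7.17 against 7.29 to 8.42). On HP lactation day 21 replicate 3 the 5 fetal liver markers were at 9.71 (8.42 to 9.62 on the other day 21 arrays) but within the range by sum (5148 against 2047 to 6695). The hepatocyte markers lay within it by mean log2 (14.39 against 14.33 to 14.85) and just under it by sum (227224 against 229719 to 329536), and the lymphocyte, Kupffer, endothelial and stellate markers lay within the range of day 21. The part of other cells in the levels of the cell cycle genes was not tested. In bulk RNA, more cells of a kind and more RNA per cell cannot be told apart.

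**Figure D3:**
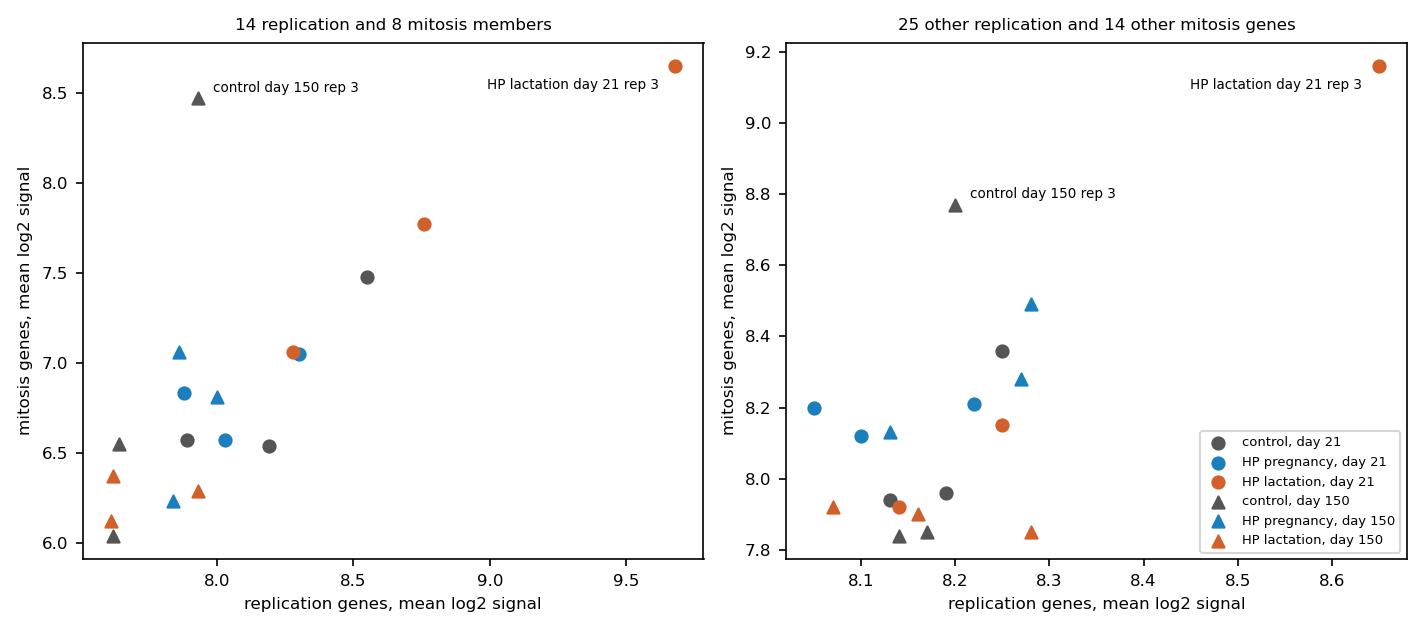
Mean log2 signal of mitosis genes (vertical) against replication genes (horizontal), 1 point per array, with the 14 and 8 listed genes on the left and 25 and 14 other genes of the same processes on the right; colours mark the diet, circles day 21 and triangles day 150. In both panels HP lactation day 21 replicate 3 lies at the upper right, and control day 150 replicate 3 lies high at a replication level like that of other day 150 arrays.

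The cell cycle genes also varied more within groups than most genes. The median standard deviation within groups was 0.83 on the log2 scale for the 8 mitosis genes, 0.47 for the 14 replication genes and 0.23 over all genes. Cdc20 (1.03), Top2a (1.02), Ube2c (0.97) and Mki67 (0.97) were at or above the percentile 98.8 of all genes. Mcm7 (0.22) and Pcna (0.24) lay near the middle of all genes, at percentiles 43.8 and 50.8. Signal level differed as well: the mean log2 signal was 5.97 for Top2a, 6.15 for Mki67, 6.33 for Ube2c and 6.96 for Cdc20. It was 10.54 for Mcm7 and 11.24 for Pcna. Dim signals are noisy on a log scale, and the spread was not compared with that of genes of like signal.

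At day 21, offspring of the HP lactation group had higher mean signals than controls for all 22 genes, but none passed the test (limma with Benjamini-Hochberg adjustment over 11018 genes, adjusted p under 0.05; 0.172% of all genes passed). The median log2 difference was 0.61 for the 14 replication genes and 0.98 for the 8 mitosis genes, against 0.00 over all genes. At an unadjusted p under 0.05 there were 5 of the 22, and 1578 of the 11018. In 4 genes, all of replication, the 3 HP lactation arrays lay above all 3 control arrays (Ccne1, Ccne2, Cdt1 and Rrm1), as in 7.43% of all genes. Marker lists also differed in this comparison. The 5 fetal liver markers summed to 4622 to 6695 on the HP lactation arrays and 2047 to 2389 in controls. On the HP pregnancy arrays they summed to 2246 to 2445. Against control 4 of the 5 had higher means after HP lactation (median log2 difference 0.60) and 1, Bex1, passed. Bex1, whose signals are given at the end, made up a large part of the gap between these sums. Of the 10 hepatocyte markers 8 had lower means than in controls (median -0.34), 0 passed, and their sums were 227224 to 296064 against 305562 to 329536. After HP pregnancy they were low too: 0 of the 10 had higher means than controls (median -0.28), 0 passed, and the sums were 229719 to 283189. The part of these marker lists in the difference of the cell cycle genes was not tested.

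Among the regulators of entry into S phase, Ccne2, an E cyclin that activates Cdk2, had signals of 146.1, 56.1 and 113.5 in controls and 213.5, 184.2 and 326.9 after HP lactation. The groups did not overlap. The log2 difference was 1.26 (SE 0.347, limma adjusted p = 0.138, n = 3 against 3), the smallest p of the 22. Ccne1, the other E cyclin, had 108.9, 97.1 and 104.3 against 231.6, 163.5 and 267.1, also without overlap, a log2 difference of 1.07 (SE 0.527, limma adjusted p = 0.366). Ccnd1, the D cyclin that links growth signals to Cdk4 and Cdk6, was at 1196.7, 781.7 and 605.9 against 1105, 1040.4 and 1541.7. The highest control array lay above 2 of the HP lactation arrays, and the log2 difference was 0.55 (SE 0.206, limma adjusted p = 0.253).

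Among the licensing factors and helicase subunits, Mcm5 had signals of 275.6, 111.6 and 119.5 in controls and 281.5, 171.3 and 1106.4 after HP lactation. Replicate 3 was far above the rest, and the groups overlapped. The log2 difference was 1.29 (SE 0.543, limma adjusted p = 0.298). Of the other subunits, Mcm2, Mcm3, Mcm4, Mcm6 and Mcm7 differed by 0.09 to 0.63, and each had at least 1 HP lactation array below the highest control array. Mcm2, at the low end of that range, differed by 0.91 on its other bright probe set. Cdt1, which loads the helicase, had 564.9, 558.8 and 541.6 against 689.8, 670.3 and 1150.1, a log2 difference of 0.55 (SE 0.291, limma adjusted p = 0.401). Among the genes of nucleotide supply, Rrm1, the large subunit of ribonucleotide reductase, had 298.6, 243.5 and 307.5 against 400.2, 325.2 and 942.9. The groups did not overlap, and the log2 difference was 0.82 (SE 0.301, limma adjusted p = 0.243). Its small subunit Rrm2 had 430.2, 178.2 and 209.7 against 252, 179.4 and 1589.5, so that its mean difference of 0.72 came with a single HP lactation array above the highest control.

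Of the mitosis genes, Mki67, whose product coats chromosomes and marks dividing cells, differed most: 106.1, 19.4 and 31.8 in controls and 130.8, 90.1 and 434.2 after HP lactation. The groups overlapped through control replicate 1, and the log2 difference was 2.10 (SE 0.687, limma adjusted p = 0.202). Cdc20 had 204.2, 86.8 and 73.7 against 251.1, 143.4 and 488.2 (log2 difference 1.25, SE 0.703, limma adjusted p = 0.426). Here too control replicate 1 lay above HP lactation replicate 2. Ccna2, the A cyclin of S phase and G2, had 123.3, 121.3 and 49.1 against 154.1, 102.9 and 320.8, a log2 difference of 0.93 (SE 0.511, limma adjusted p = 0.414). Cenpa, the histone of the centromere, differed least, with 355.5, 436 and 345.2 against 524.3, 306 and 492.2, a log2 difference of 0.19 (SE 0.311, limma adjusted p = 0.834), but its other bright probe set differed by 1.26, while that of Ccna2 differed by 0.24. Without HP lactation day 21 replicate 3, the median differences were 0.22 for replication and 0.54 for mitosis genes, 12 of 14 and 8 of 8 stayed positive, and Ccne2 (1.02), Ccne1 (0.91) and Mki67 (1.43) differed most while Rrm2 turned to -0.25 and Mcm2 to -0.17.

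**Figure D4:**
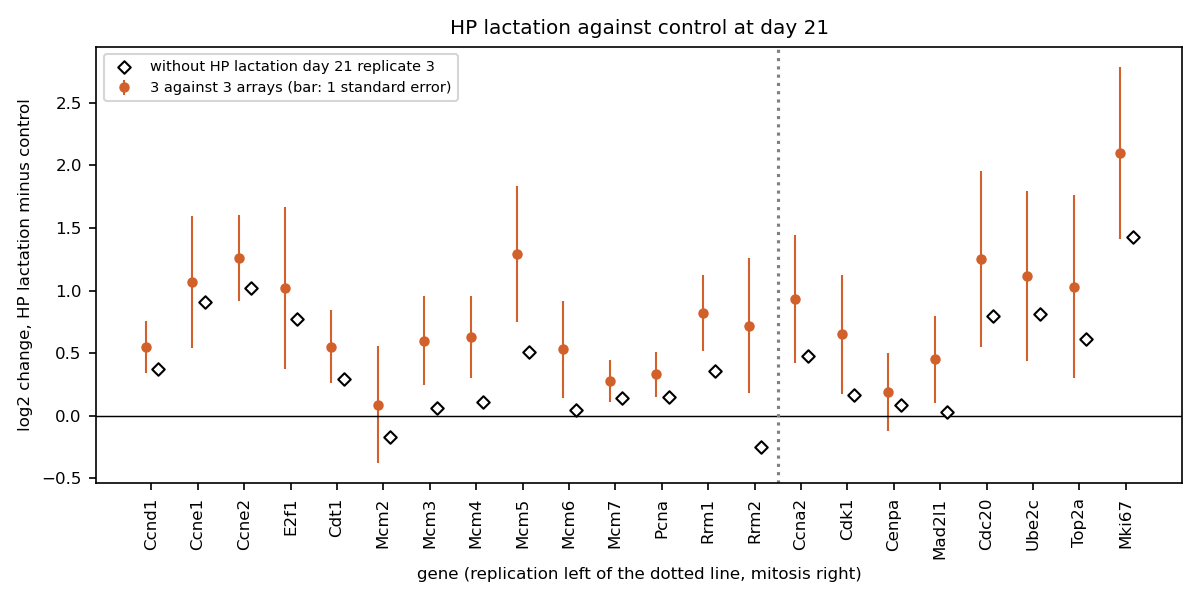
Log2 difference between HP lactation and control at day 21 for each of the 22 genes, with 3 arrays a group (filled circles, bar of 1 standard error) and without HP lactation day 21 replicate 3 (open diamonds). All 22 circles lie above 0, while the diamonds of Mcm2 and Rrm2 lie below it and those of Mcm3, Mcm6 and Mad2l1 at 0.03 to 0.06.

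After HP feeding in pregnancy, 6 of the 22 genes had higher and 16 had lower mean signals than controls at day 21. Of them, 0 passed against control (limma; 0% of all genes passed, 1100 had an unadjusted p under 0.05), 0 had an unadjusted p under 0.05, and the median log2 differences were -0.18 for replication and -0.12 for mitosis genes. Only Mcm2, with 470, 499.1 and 391.8 against 211.3, 268.1 and 352.5, had groups that did not overlap, higher after HP pregnancy as in 10.5% of all genes (log2 difference 0.73, SE 0.468, limma adjusted p = 0.626), and its other bright probe set differed by 0.48. The 3 arrays of the HP pregnancy group were close to each other, with replication means of 7.88 to 8.30 and mitosis means of 6.57 to 7.05.

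The 2 HP groups were also set against each other at day 21, where 21 of the 22 genes had the lower mean in the HP pregnancy group, Mcm2 being the other (log2 difference 0.64, and -0.43 on its other bright probe set). None passed (limma; 1.28% of all genes did), 12 of the 22 had an unadjusted p under 0.05 (1646 of the 11018 genes did), and the groups did not overlap in 10, all lower after HP pregnancy (8.7% of all genes). The median log2 differences were -0.85 and -1.15. Pcna, the sliding clamp of the polymerases, had 2194.4, 3071.4 and 2675.4 after HP pregnancy and 4172.6, 3113.4 and 5276 after HP lactation. The log2 difference was -0.64 (SE 0.178, limma adjusted p = 0.0833), and it passed without HP lactation day 21 replicate 2 (-0.84, limma adjusted p = 0.028). Without HP lactation day 21 replicate 3 the medians were -0.40 and -0.70, and 0 genes passed. This comparison shares the HP lactation arrays with the one against control, so the 2 are not independent.

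At day 150, neither HP group differed from control in any of the 22 genes by limma with Benjamini-Hochberg adjustment. After HP pregnancy, where 2.63% of all genes passed and 2208 had an unadjusted p under 0.05, 2 of the 22 had one, both of replication. The groups did not overlap in 4 of the 22: Cdt1, Ccne2 and Mcm2 were higher after HP pregnancy (15.1% of all genes were so) and Pcna was lower (12.9%). Cdt1 had 169.5, 164.4 and 266.5 in controls and 279.9, 372.9 and 475 after HP pregnancy, a log2 difference of 0.91 (SE 0.291, limma adjusted p = 0.0914). It passed with array weights (0.96, limma adjusted p = 0.03), where 9.56% of all genes passed. Ccne2 had 76.9, 58.3 and 51.7 against 90.6, 91.1 and 158.4 (log2 difference 0.83, SE 0.347, limma adjusted p = 0.183). Mcm2 had 161.4 to 210.2 against 108.5 to 147.7 in controls (0.55), but its other bright probe set differed by -0.40. Pcna had 1396.1 to 1643.8 against 1726.4 to 2152.9 (-0.35, SE 0.178, limma adjusted p = 0.287). The median was 0.07 over the replication genes.

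The mitosis genes at day 150 turned on control replicate 3. Ube2c had 41.8, 42.5 and 472.9 in controls, 95.8, 46.7 and 56.2 after HP pregnancy, and 35.6, 55.3 and 43.5 after HP lactation. Cdc20 had 49.1, 70.6 and 648.5 in controls, 151.5, 53 and 108.7 after HP pregnancy, and 100.4, 92.4 and 74 after HP lactation. In both genes this single control array was over 4-fold above every other array of day 150. All 8 mitosis genes had lower means after HP pregnancy than in controls (median log2 difference -0.39), and without that array all 8 had higher ones (0.45), with 0 passing either way. After HP lactation the 8 were likewise lower (-0.55), and 6 of 8 were higher without it (0.09).

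After HP lactation, the replication genes at day 150 had a median log2 difference from control of -0.02. Of the 22 genes 0 passed (limma; 0.00908% of all genes passed), and 2, Ccne2 and Top2a, had an unadjusted p under 0.05, as did 851 of all genes. Ccne2 and Ccnd1 were above control on every array, as 7.42% of all genes were. Ccne2 had 140.8, 146.4 and 91.5 (log2 difference 1.01, SE 0.347, limma adjusted p = 0.5). Ccnd1 had 617.6 to 726.5 against 439.5 to 565.4 in controls (0.34, SE 0.206, limma adjusted p = 0.728). Top2a, the topoisomerase that untangles sister chromatids, had 39.9, 95.5 and 181.9 in controls and 7.2, 30.4 and 69.9 after HP lactation, a log2 difference of -1.83 (SE 0.73, limma adjusted p = 0.555), and the groups overlapped. Between the HP groups at day 150, 0 of the 22 passed (limma; 0.717% of all genes). Ccne1, at 88.3, 134.9 and 123.4 after HP pregnancy and 17.2, 129.1 and 39.9 after HP lactation, passed without HP lactation day 150 replicate 5 (2.12, limma adjusted p = 0.027).

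With age, Cdt1, Mcm6, Pcna and Ccnd1 fell in control offspring. From day 21 to day 150, 4 of 14 replication genes fell (limma adjusted p under 0.05; 17.8% of all genes passed, 8.08% by falling), 0 rose, and 0 of 8 mitosis genes passed. The median log2 change was -0.62 for replication and 0.14 for mitosis genes, against 0.02 over all genes. Without control day 150 replicate 3 it was -0.57 and -0.74, and the difference between the 2 kinds of gene was not tested. The 3′/5′ signal ratios of the control transcripts moved with day in all diets. Over the arrays, that of Gapdh was 0.821 to 0.993 at day 21 and 1.3 to 1.803 at day 150, and that of actin was 1.964 to 3.154 and 4.062 to 6.498; their part in the age changes was not tested.

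Cdt1 had signals of 564.9, 558.8 and 541.6 at day 21 and 169.5, 164.4 and 266.5 at day 150. No array of one age reached the other, and the log2 change was -1.51 (SE 0.291, limma adjusted p = 0.00167). Mcm6 fell from 692.5, 275 and 302.6 to 141.5, 87.5 and 170.1 (-1.59, SE 0.389, limma adjusted p = 0.00892). Its other bright probe set gave -1.54 (limma adjusted p = 0.1), and the call was lost without control day 150 replicate 2 (-1.32, limma adjusted p = 0.055). Pcna fell from 2986.8, 3823.6 and 3004.7 to 2030.6, 1726.4 and 2152.9 (-0.73, SE 0.178, limma adjusted p = 0.00885). Ccnd1 fell from 1196.7, 781.7 and 605.9 to 439.5, 565.4 and 558.7 (-0.68, SE 0.206, limma adjusted p = 0.0294). The Ccnd1 groups lay close, and leaving out control day 21 replicate 1 or 2 or control day 150 replicate 1 or 2 ended the call (log2 change -0.41 to -0.74, limma adjusted p up to 0.15). So did array weights (-0.58, limma adjusted p = 0.051) and the compared arrays alone (-0.68, limma adjusted p = 0.074). Cdt1 and Pcna passed whichever array was left out. On its next probe set Cdt1 did not pass (-0.91, limma adjusted p = 0.069).

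E2f1, the transcription factor that drives S phase genes, went the other way and was higher on all 3 arrays of day 150: 47.9, 16 and 47.4 at day 21 and 124.6, 104.3 and 121.1 at day 150 (log2 change 1.81, SE 0.647, limma adjusted p = 0.06). Its probe set is dim, with a mean log2 signal of 5.93. At day 21 its geometric mean was 33.1 in controls and 16.7 after HP pregnancy, under the signal threshold of 57.5. It was 67.1 after HP lactation. At day 150 the geometric means were 116.3, 121.7 and 98.4 in control, HP pregnancy and HP lactation offspring. E2f1 was thus kept through the arrays on which it was high, and its rise in controls started from dim signals. With 50 added to the signal the change in controls was 0.96 and passed (limma adjusted p = 0.0074), and it passed with the compared arrays alone (1.81, limma adjusted p = 0.037). The other helicase subunits, apart from Mcm2 (-1.08), changed by -0.02 to -0.59, and none of the 5 passed in this fit. Mcm7 passed on its next probe set (-0.6, limma adjusted p = 0.021). Mcm2 passed with array weights (-1.2, limma adjusted p = 0.045) and with the compared arrays alone (-1.08, limma adjusted p = 0.016). The brightest Mcm2 probe set and the other one differed in sign (-1.08 and 0.69).

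In mitosis the level at day 150 again depended on replicate 3. Cdk1 had 174.8, 124.7 and 174.8 at day 21 and 58.7, 125.2 and 364 at day 150 (log2 change -0.17, SE 0.477, limma adjusted p = 0.847). Mad2l1, a checkpoint protein that restrains Cdc20, had 347.1, 267.2 and 236.5 and then 221.2, 152.3 and 460 (-0.17, SE 0.347, limma adjusted p = 0.79). Cenpa had 355.5, 436 and 345.2 and then 163, 206.3 and 447.6 (-0.61, SE 0.311, limma adjusted p = 0.192). In these 3 genes the day 150 arrays spanned the whole range of day 21. Mki67 had 106.1, 19.4 and 31.8 and then 41.8, 60 and 288.5 (1.16, SE 0.687, limma adjusted p = 0.27). Without control day 150 replicate 3 the median of the 8 was -0.74, 7 of 8 were negative, and Cenpa passed (-1.04, limma adjusted p = 0.018); Ccne2 passed without control day 21 replicate 2 (-1.07, limma adjusted p = 0.044).

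After HP pregnancy, 2 of 14 replication genes fell with age and 1 rose (limma; 23.6% of all genes passed, 11.5% by falling and 12.1% by rising), and 0 of 8 mitosis genes passed. Pcna fell from 2194.4, 3071.4 and 2675.4 to 1396.1, 1598.3 and 1643.8 (log2 change -0.77, SE 0.178, limma adjusted p = 0.00452). Mcm6 fell from 292.3, 325.3 and 291.5 to 180.4, 111.5 and 122.9 (-1.16, SE 0.389, limma adjusted p = 0.0371). E2f1 rose from 39.3, 30.4 and 3.9 to 112.4, 120.4 and 133.1 (2.86, SE 0.647, limma adjusted p = 0.00367), and without HP pregnancy day 21 replicate 3, the array at 3.9, the change was 1.82 (limma adjusted p = 0.015); with 50 added to the signal it was 1.24 (limma adjusted p = 0.00081). The Mcm6 call was lost whenever 1 array was left out other than HP pregnancy day 150 replicate 1 (-1.02 to -1.19, limma adjusted p up to 0.13), and on its next probe set (-1.27, limma adjusted p = 0.15), with quantile normalization (-1.08, limma adjusted p = 0.058) or without the signal threshold (-1.16, limma adjusted p = 0.058), while Ccnd1 passed without HP pregnancy day 21 replicate 1 (-0.68, limma adjusted p = 0.042). The median change was -0.33 for replication and -0.20 for mitosis genes.

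After HP lactation, 14 of the 22 genes fell with age, 9 of replication and 5 of mitosis, and 0 rose (limma; 25.7% of all genes passed, 11.6% by falling). The medians were -1.02 for replication and -1.46 for mitosis genes. The replication genes that fell were Ccnd1, Ccne1, Cdt1, Mcm3, Mcm5, Mcm6, Mcm7, Pcna and Rrm1. Mcm6 had 389.5, 409.6 and 1091.2 at day 21 and 63.6, 115 and 71.1 at day 150, its lowest mean of the 6 groups (-2.80, SE 0.389, limma adjusted p = 4.74e-05). Pcna fell from 4172.6, 3113.4 and 5276 to 2269.7, 1887.2 and 1671.9 (-1.09, SE 0.178, limma adjusted p = 0.000243). Cdt1 fell from 689.8, 670.3 and 1150.1 to 313.8, 365.2 and 158.9 (-1.62, SE 0.291, limma adjusted p = 0.00056). In these 3 genes the ages did not overlap.

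Ccne1 fell from 231.6, 163.5 and 267.1 to 17.2, 129.1 and 39.9 (-2.28, SE 0.527, limma adjusted p = 0.00401), with 1 of the older pools near the younger ones. E2f1 did not pass (67.3, 47.2 and 95.1, then 132.4, 69.6 and 103.5; 0.55, SE 0.647, limma adjusted p = 0.568). The mitosis genes that fell were Cdk1, Cenpa, Mad2l1, Ube2c and Top2a. Ube2c had 197.3, 106.9 and 277 at day 21 and 35.6, 55.3 and 43.5 at day 150 (-2.03, SE 0.679, limma adjusted p = 0.0344). Top2a had 132.6, 67.2 and 225.8 and then 7.2, 30.4 and 69.9, with an overlap of 1 array on each side (-2.35, SE 0.73, limma adjusted p = 0.0238).

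**Figure D5:**
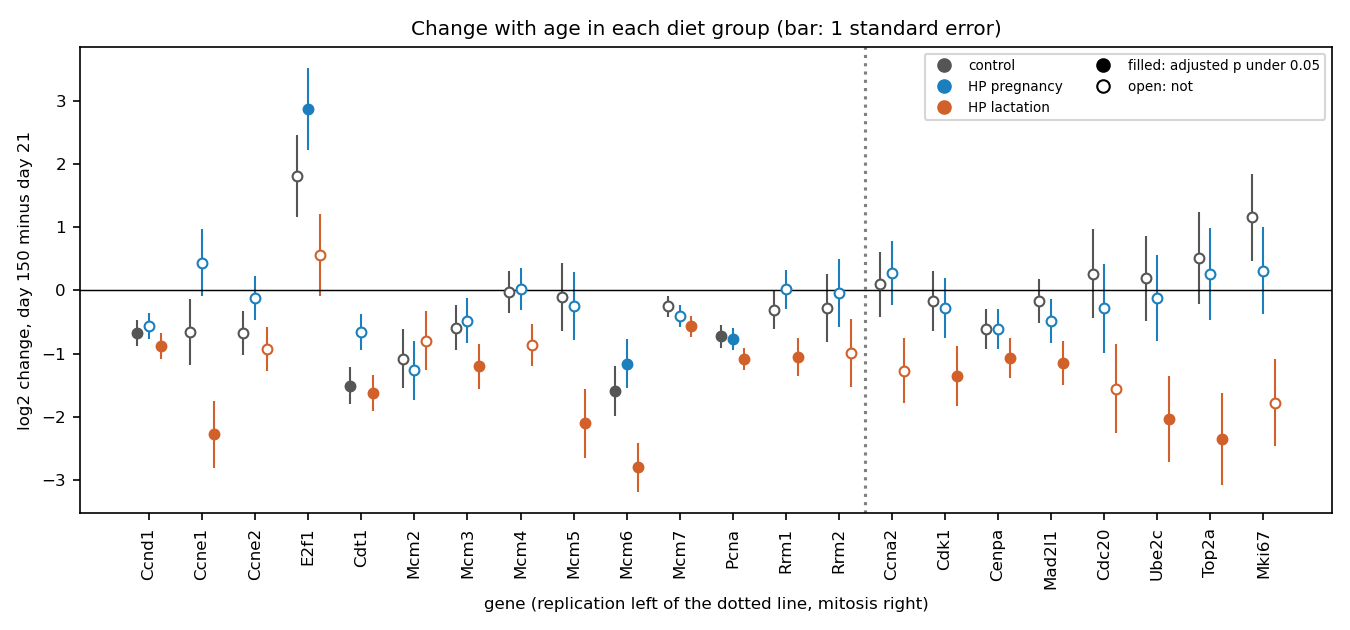
Log2 change from day 21 to day 150 of each of the 22 genes in control, HP pregnancy and HP lactation offspring, with a bar of 1 standard error; filled points passed at an adjusted p under 0.05 and open points did not. The HP lactation points of 21 genes lie below 0, with E2f1 at 0.55, while the control and HP pregnancy points of the mitosis genes lie on both sides of 0.

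Most of these calls changed with the arrays used, the high pool of day 21 among them. For Cdk1 and Ube2c, leaving out 1 array ended the call in 5 of 6 cases. Without HP lactation day 21 replicate 3, 5 of the 22 passed, where 23.1% of all genes did. They were Ccnd1, Ccne1, Cdt1, Mcm6 and Pcna, all among the 14, and 0 were of mitosis. Even so, 8 of 8 mitosis genes stayed negative (median -1.04, and -0.67 for replication). The 5 that passed also did so under every other alternative in which they were tested. Without HP lactation day 21 replicate 1, 9 of the 22 passed (19.3% of all genes), and without HP lactation day 150 replicate 6 also 9 (21.9%). Without HP lactation day 21 replicate 2, 19 did (21.8%). With array weights 6 of the 22 passed (22.8% of all genes), and Ube2c (-1.74, limma adjusted p = 0.1) and Top2a (-1.84, limma adjusted p = 0.08) were not among them. Control day 150 replicate 3 bears on the same tests, since all groups share the estimate of the spread. Without it Cdc20 (-1.56, limma adjusted p = 0.021) and Mki67 (-1.78, limma adjusted p = 0.033) also passed after HP lactation. Without both high pools 9 of the 22 passed, 6 of replication and 3 of mitosis, against 22.4% of all genes.

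The difference between diets in the change with age was tested by itself. It passed for 0 of the 22 genes for HP pregnancy against control (limma, smallest adjusted p 0.999; 0.0182% of all genes passed) and for 0 of the 22 for HP lactation against control (limma, smallest adjusted p 0.929; 0.0182%). For HP lactation the median difference of changes was -0.66 for replication and -1.59 for mitosis genes, and 6 of the 22 had an unadjusted p under 0.05, as did 562 of all genes. Mki67 differed most (-2.94, SE 0.971, limma adjusted p = 0.929). Without both high pools the medians were -0.13 and -0.29. The 3 changes with age are therefore not shown to differ between the diets.

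The 14 matched genes under the signal threshold were fitted without it among 18193 genes, and 0 of them passed in any of the 11 comparisons. They were Cdc6 and Tyms of replication and Ccnb2, Foxm1, Plk1, Aurka, Tpx2, Kif11, Nusap1, Aurkb, Birc5, Kif20a, Bub1 and Bub1b of mitosis. At day 21 Nusap1, a spindle protein, had 46.3, 5.3 and 9.5 in controls and 82.9, 78.6 and 242.9 after HP lactation (log2 difference 3.14, SE 1.11, limma adjusted p = 0.329). Birc5 had 123.2, 4.4 and 14.1 against 138.8, 68.6 and 273.5 (2.80, SE 0.958, limma adjusted p = 0.306). In both genes the HP lactation arrays were high and the controls widely spread. Foxm1, the transcription factor of mitosis genes, did not follow the 2 high pools, with 45.4 and 7 there and up to 89.6 elsewhere. In the day 21 comparison it went the other way, with a geometric mean of 56.2 in controls and 24.8 after HP lactation. So did Bub1b (31.4 and 24.9), while the rest of the 14 had higher means after HP lactation. In the same fit 4, 2 and 12 of all 36 genes passed with age in control, HP pregnancy and HP lactation offspring, against 9.2%, 12.5% and 13.9% of all genes.

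Of 25 other replication fork genes, 3 rose and 3 fell in controls, 3 rose and 1 fell after HP pregnancy, and 3 rose and 6 fell after HP lactation (limma adjusted p under 0.05). These totals of 6, 4 and 9 stand against 17.8%, 23.6% and 25.7% of all genes. Fen1, the flap endonuclease of lagging strand synthesis, rose in all 3 (log2 change 1.02, 2.03 and 1.25, limma adjusted p at most 0.00203), and Gins1, a partner of the helicase, fell in all 3 (-0.74, -0.67 and -0.86, limma adjusted p at most 0.0117). Of 14 other mitosis genes, 1 rose and 1 fell in controls, 1 rose and 1 fell after HP pregnancy, and 2 fell after HP lactation, Cdca3 (-1.57) and Spc25 (-1.12), a subunit of the kinetochore. Of 8 D cyclins, kinases and partners, Cdc25a, the phosphatase that activates Cdk2 (-0.98, -1.04 and -0.64), and Cdk7 (-0.53, -0.77 and -0.96) fell in all 3 diets (limma adjusted p at most 0.0425). At day 150 Fen1 (0.81, limma adjusted p = 0.0424) and Smc4 of condensin (0.60, limma adjusted p = 0.0434) were higher after HP pregnancy than in controls, the only 2 of these 39 replication fork and mitosis genes to pass in a comparison of diets.

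Of 16 inhibitors and pocket proteins, 1 rose and 2 fell with age in controls, 0 rose and 3 fell after HP pregnancy, and 1 rose and 7 fell after HP lactation. Of all genes, 9.7%, 12.1% and 14.1% rose and 8.08%, 11.5% and 11.6% fell in these diets. Cdkn1a, the p21 inhibitor of cyclin-dependent kinases, fell after HP lactation from 2059.1, 831.2 and 1446.9 to 225.5, 61.9 and 701.7 (log2 change -2.66, SE 0.675, limma adjusted p = 0.00749). Cdkn1c, the p57 inhibitor, fell in all 3 diets (-1.39, -1.09 and -1.46, limma adjusted p at most 0.0425). The marker lists moved with age too. Of 5 fetal liver markers 4 fell in each diet, Afp among them, and of 8 stellate markers 4, 3 and 3 fell. The 10 hepatocyte markers summed to 227224 to 329536 at day 21 and 262013 to 452027 at day 150, and 1 of them, Hnf4a, rose in each diet. Their part in the age changes of the cell cycle genes was not tested.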

How the data were processed

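Per the labels, RNA pooled from DUK livers was hybridised to 18 Affymetrix Mouse 430 2.0 arrays in 6 groups of 3. The signal intensities deposited by the authors were made with MAS5 in GCOS 1.4, per the submitters' processing notes; they are linear, and the trimmed mean of every array lay at about 500, so no further scaling was applied. MAS5 works array by array, and its dim signals are noisy on a log scale. Probe sets were named through the platform's gene annotation: 34958 of 45101 named 1 symbol, 932 several and 9211 none, and 64 were controls. Log2 signals were taken with nothing added. Probe sets with a mean log2 signal of at least 5.85, the median of all non-control sets, were kept, and the brightest of each gene was used (11018 genes). Standard errors of log2 differences had a median of 0.189, with 3 arrays a group.

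All 18 arrays entered a single limma model of group means (version 3.58.1 in R 4.3.3; lmFit and contrasts.fit, then eBayes with a trend on mean signal), tested two-sided, with Benjamini-Hochberg adjustment over all genes in each of 11 comparisons and a threshold of 0.05. Pools may share animals, and p-values would then be too small. Replicate numbers were not taken as pairs: deviations of equally numbered arrays from their group means correlated at -0.113 to 0.103. Unequally numbered arrays were not set beside them, and HP lactation day 150 has no equally numbered arrays. Whether equal numbers shared processing is therefore not settled. Motifs were searched in RefSeq promoter sequences with Python 3.11.15; figures used matplotlib 3.10.9.

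The members and the gene lists were chosen with earlier results of these data known. All members could be named; values on every array are given for the member with the smallest p of each role in the HP lactation comparison at day 21 and in the control change with age, and for others chosen after their values were seen. Of other lists, genes with the smallest p and defining markers could be named. Results were recomputed without the signal filter and with one at the 70th percentile; after quantile normalization or scaling to equal 75th percentiles; with 50 added before taking logs; on each gene's next probe set; without the trend; with array weights; on only the arrays compared; with replicate number as a block; and leaving out single arrays. Leaving out both high pools together was an alternative added after seeing the data. On simulated data for HP lactation against control at day 21, with the means and spreads of 11018 genes, log2 changes of 0.5 were recovered in 21.2% of cases, of 1 in 74.4%, of 1.5 in 82.4% and of 2 in 94.8%. Of 715 calls in 5 runs, 33 were false. These rates are over all genes, whose median standard deviation within groups was 0.23. They are not rates for the cell cycle genes, which spread more (0.83 for mitosis and 0.47 for replication) and were not simulated apart.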

Additional observations from a re-analysis of the deposited data

How the results depend on the processing

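Of the 29 counts and medians over the 22 genes, 232 of 244 values under alternatives other than a left-out array stayed within 1.5 times the count or within the spread between replicates, and 12 moved. With array weights 1 gene (Cdt1) passed for HP pregnancy against control at day 150, 7 with age after HP pregnancy and 6 with age after HP lactation. Of all genes, 9.56%, 38.8% and 22.8% passed with these weights. With the filter at the 70th percentile 7 passed with age after HP lactation, where 31.7% of all genes did. The median was then -0.29 for mitosis genes in HP pregnancy minus HP lactation at day 21, and -0.07 for replication genes in the same contrast at day 150. With age after HP pregnancy it was -0.49 (replication) and -0.55 (mitosis). Without the filter the last was 0.14, over all matched mitosis genes. With the compared arrays alone 6 passed with age after HP pregnancy, where 27.7% of all genes did. Without both high pools (added after seeing the data) 9 passed with age after HP lactation, where 22.4% of all genes did. The cause of these moves was not tested, beyond the fewer genes that the stricter filter leaves.

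With 1 array left out, the count that passed ran from 0 to 1 between the HP groups at each day, from 2 to 5 with age in controls, from 2 to 3 after HP pregnancy and from 5 to 19 after HP lactation, and was 0 in the other comparisons. Of all genes, 0.3% to 3.28% passed between the HP groups at day 21 and 0.0182% to 2.28% at day 150. With age 10.4% to 16% passed in controls, 14.9% to 22.5% after HP pregnancy and 19.3% to 23.1% after HP lactation. The replicate numbers were not used as pairs. A replicate block was also fitted (HP lactation day 150, numbered 4 to 6, has no partners and was left out). With the block 1 gene passed for HP pregnancy against control at day 150 (1.58% of all genes) and 5 with age after HP pregnancy (22.8%). It moved no other count by over 1.5 times. The fall of Ccnd1 with age in controls did not pass with it (-0.68, limma adjusted p = 0.058). Of 3894 values of single genes under the alternatives, 3799 kept direction and side of the threshold, 34 passed only under the alternative, 61 passed only in the reported fit, and 0 turned direction past the threshold. Equal 75th percentiles moved the median of all genes by -0.12 for HP lactation against control at day 21. Signals near the threshold, such as those of E2f1, limit what can be said of dim genes.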

Other observations

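Bex1 and Mcm10 are described here as values alone. Bex1, a transcript of fetal liver, was the only gene of the 14 lists beside the cell cycle genes to pass for HP lactation against control at day 21 (limma, log2 difference 2.69, SE 0.495, adjusted p = 0.029), with 370.7, 428.1 and 481.3 in controls and 4476.9, 2524.6 and 1802.4 after HP lactation. Its lowest HP lactation array was replicate 3, the one with the highest cell cycle signals, whereas Afp was highest there (1438.5, against 478.4 and 630.3 in the other HP lactation pools of day 21). Gadd45g, a growth arrest gene, was also lowest there among the HP lactation pools (1311.3, against 6835.9 and 4184.9).

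Mcm10, a replication initiation factor, rose with age in all 3 diets, by 2.69, 2.65 and 3.36 on the log2 scale (limma, adjusted p at most 5.41e-07). Its signals were 393.9 to 832.6 at day 21 and 3972.2 to 7493.9 at day 150 on the brightest of its 3 probe sets. The next set, just past the signal threshold, changed by 2.08, 1.24 and 2.0, and the third was dim on every array (at most 29.4). Whether the brightest set detects Mcm10 alone could not be checked here.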
